A study of Mus musculus with 9 samples.

Results

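PBX and MEIS proteins are homeodomain transcription factors of the TALE class that act as partners for other factors. PBX proteins bind DNA together with HOX proteins and with MEIS proteins, and binding to MEIS keeps PBX in the nucleus and recruits coactivators. Both families are needed for patterning of the head and limb skeleton, and MEIS2 with a PBX partner has been described as a cooperating factor of KLF4 in other cells. Pbx2, Pbx3, Pbx4, Meis1, Meis2 and Meis3 were followed here, 6 genes in all. They were found by the gene name given to each peak, and KLF4 sites were added where they overlapped such a peak or lay within 10 kb of one. This gave 3 of 3463 PLAGL1 peaks, 10 of 16251 H3K4me3 peaks and 8 of 21130 KLF4 sites, or 21 of 40844 regions in all.

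The cells were mouse periosteal stem/progenitor cells, which line bone, grown from mandibular angles dissected at 8 weeks of age. Chromatin was profiled by CUT&Tag: an antibody directs a transposase to its target, and the DNA cut there is sequenced. The KLF4 libraries comprised 3 from Ctsk-iCre;Plagl1fl/fl cells and 3 from Plagl1fl/fl control cells, both given FLAG-tagged KLF4 by lentivirus, as the sample titles have it, and probed with anti-FLAG. In their treatment labels the vector name differs from library to library, from LV-Klf4-OE-Flag to LV-Klf9-OE-Flag, beside the words Klf4-overexpression, so that what each library expressed rests on the titles. PLAGL1, a zinc-finger factor of an imprinted locus, was profiled in 1 anti-HA library from Plagl1fl/fl cells given HA-tagged PLAGL1 by lentivirus, with 1 IgG library of the same cells as its control, and the promoter mark H3K4me3 in 1 library of Plagl1fl/fl cells with no virus named. All groups had 3 days of osteogenic medium with ascorbic acid at 50 µg/ml, beta-glycerophosphate at 5 mM and dexamethasone at 1e-07 M. The Ctsk promoter drives Cre in only some of the cells of a tissue, and the deletion could not be checked because the authors' deposited table has no values per library. Both factors were overexpressed, so binding of the cells' own PLAGL1 and KLF4 was not measured. Nothing in the labels ties the replicates to separate animals. The p-values thus reflect the spread between these libraries alone, largely pooled over sites, and that spread may be technical. Depth per library is unknown.

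The cells carried the mark at the genes of their label, but also at most markers of macrophages, osteoclasts and blood. All 8 periosteal and mesenchymal markers had H3K4me3 at the transcription start site (TSS), meaning a peak at most 3 kb from it. The share over all protein-coding genes was 51.3%. The scores of these 8 had a median of 522 and a maximum of 898. Markers of macrophages, osteoclasts and blood were marked at 6 of 7 genes, all but Acp5, with a median score of 179 and a maximum of 276. Among the periosteal markers only Prrx1 (273) lay below the highest of these, Tyrobp (276). The counts of marked genes thus do not set the label apart from macrophages, osteoclasts and blood. Of the endothelial markers 1 of 5 was marked (Kdr, 179), and of the Schwann cell markers 1 of 4 (S100b, 50). None of the 4 skeletal muscle markers had a peak at its TSS. Blood and endothelial cells also use MEIS and PBX genes, and the part of such cells in the signal below was not tested.

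All 6 genes carried H3K4me3 within 3 kb of the TSS, against 51.3% of 21900 protein-coding genes. Of the 6, 2 (Pbx3 and Meis3) had a PLAGL1 peak annotated to them at any distance, against 9.82% of protein-coding genes. Pbx3 was the 1 gene with such a peak within 3 kb of its TSS, against 5.82% of protein-coding genes and 10.3% of marked ones. A KLF4 site lay in the H3K4me3 peak at the TSS of 2 of the 6, Pbx3 and Pbx4, against 68.5% of 11229 marked protein-coding genes. Pbx3 was the only one of the 6 where all 3 lists met. With so few genes these counts describe the family and were not tested.

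**Figure D1:**
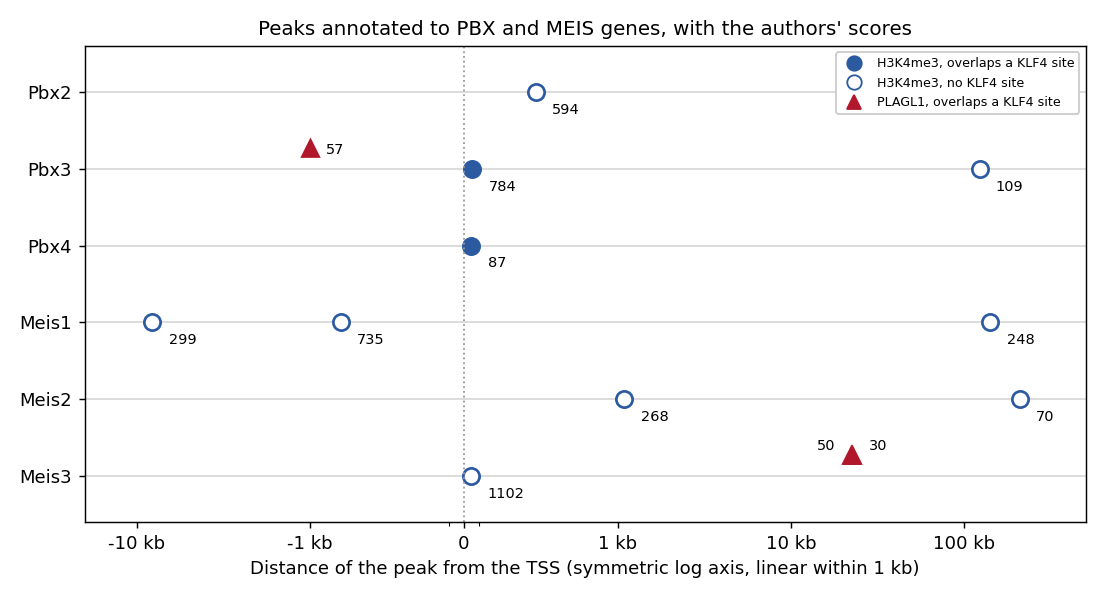
Peaks annotated to each gene by signed distance from the TSS (horizontal, symmetric log axis in bp), with the authors' peak score beside each point; circles are H3K4me3 and triangles PLAGL1, filled where a KLF4 site overlaps. The 3 PLAGL1 peaks are filled, the scores 50 and 30 at Meis3 belong to 2 peaks drawn almost on top of each other, and of the 10 H3K4me3 peaks only those at the TSS of Pbx3 and Pbx4 are filled.

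The H3K4me3 peaks at the TSS differed widely among the genes. A peak score is the authors' own value for that peak in 1 library, so neighbours in the order cannot be told apart from noise. Meis3 had the highest score, 1102, followed by Pbx3 with 784, Meis1 with 735, Pbx2 with 594, Meis2 with 268 and Pbx4 with 87. The median was 664.5 over these genes and 850 over all marked protein-coding genes. Meis3 alone lay above that median, ahead of 69.5% of marked genes, while Pbx4 was ahead of 5.29%.

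Width told a different order. The peaks spanned 2519 bp at Meis2, 2446 bp at Pbx3, 2383 bp at Meis1 and 2325 bp at Pbx2, against a median of 1348 bp over marked genes. These 4 peaks were wider than those of 91.1% to 93.7% of marked genes, and all 4 scores were below the median. Such a pairing, a width in the upper 10% with a score below the median, was found at 666 marked genes, or 5.93%. Most marked genes in the upper 10% by width thus had a score below the median. Meis3 was nearer the middle with 1526 bp, and Pbx4 had 345 bp, wider than 1.48% of marked genes.

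**Figure D2:**
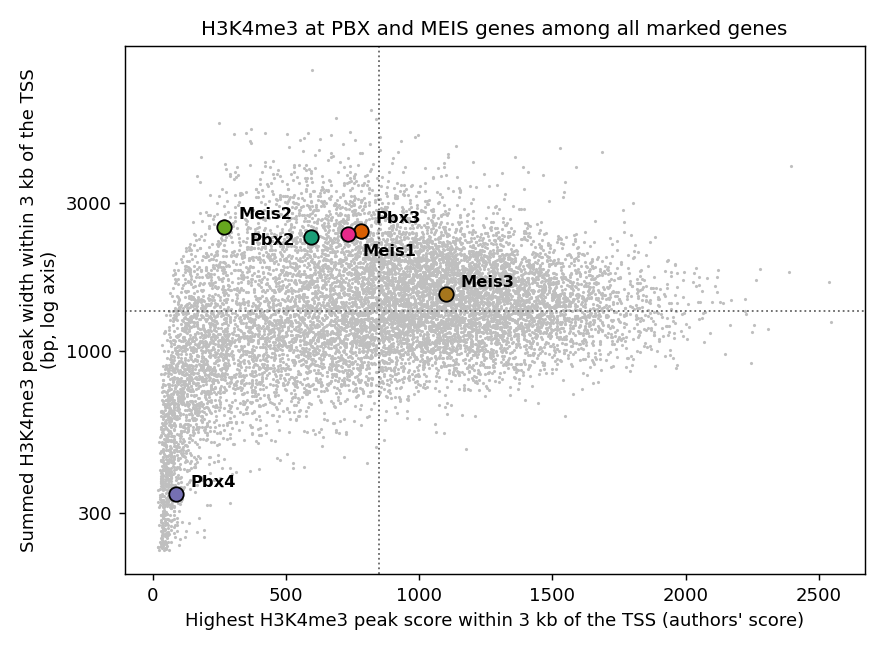
Highest H3K4me3 peak score (horizontal, the authors' score) and summed H3K4me3 peak width in bp (vertical, log axis) within 3 kb of the TSS, for all marked protein-coding genes (grey) and the 6 PBX and MEIS genes (coloured); dotted lines are the medians of 850 and 1348 bp. Meis2, Pbx2, Meis1 and Pbx3 sit above the width median and left of the score median, Meis3 is above both medians, and Pbx4 is at the low corner.

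Among the PBX genes, Pbx3 was the place where the profiles coincided. Pbx3 encodes a PBX partner needed in the mouse for the hindbrain control of breathing. Its H3K4me3 peak at chr2:34260781-34263226 (mm39) was centred 54 bp from the TSS. The PLAGL1 peak at chr2:34262895-34263226 was centred 1003 bp upstream of the TSS, in a stretch that the authors annotated as intergenic and as a CpG island. Its score of 57 was rank 769 of 3463, and its width of 332 bp compared with a median of 188 bp. Both peaks ended on the same base, as 19 of the 1686 PLAGL1 peaks inside H3K4me3 shared an exact edge with the H3K4me3 peak.

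The KLF4 site at chr2:34262525-34263345 covered the whole Pbx3 PLAGL1 peak. Its mean signal in the authors' deposited table was 5.92 log2 CPM (read counts scaled to library size and not to site width), higher than at 77.3% of KLF4 sites. A further H3K4me3 peak with a score of 109 lay in intron 2 of 8 of Pbx3, 122209 bp from the TSS, without PLAGL1 or KLF4. By percentile ranks of H3K4me3 score and width, PLAGL1 score and KLF4 signal, the genes most like Pbx3 among the 1101 with all 4 values were Wwtr1, Cd164 and Stag1. Their distances were 9.37, 10.2 and 11.7 percentile points. Wwtr1 had an H3K4me3 score of 729, a width of 2596 bp and a PLAGL1 score of 50.

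Pbx4, a PBX gene known in the mouse mainly from the testis, had the weakest mark and yet a KLF4 site on it. The H3K4me3 peak at chr8:70285150-70285494 was centred 48 bp from the TSS and was narrower than the KLF4 site over it, chr8:70285058-70285576, which is 519 bp wide. That site had 4.57 log2 CPM in the authors' deposited table, higher than at 29.8% of sites. A second KLF4 site lay 9403 bp away, on an H3K4me3 peak with a score of 53 annotated to Lpar2, a receptor for lysophosphatidic acid. Among marked genes in the lowest of 4 equal groups by H3K4me3 score, which holds Pbx4 and Meis2, 36.0% had a KLF4 site in the marked peak.

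Pbx2, a widely expressed PBX gene, had H3K4me3 at chr17:34810538-34812862, centred 467 bp from the TSS and overlapping the 3′ end of its neighbour Gpsm3. No PLAGL1 peak was annotated to it and no KLF4 site overlapped its peak. The nearest KLF4 site, chr17:34806008-34806673, was 3865 bp away with 5.90 log2 CPM in the authors' deposited table. It lay under peaks annotated to Gpsm3, an H3K4me3 peak with a score of 759 and a PLAGL1 peak with a score of 61 at chr17:34806309-34806615, in the last exon of Notch4. That PLAGL1 peak was 3923 bp from the Pbx2 H3K4me3 peak, and it is named here after its values were seen. The other linked site, 9670 bp away at the promoter peak of Rnf5, had the highest signal of the 8, 7.43 log2 CPM in the authors' deposited table. That site was 1288 bp wide, against a median of 578.5 bp over all KLF4 sites.

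Among the MEIS genes, Meis3 had the strongest promoter mark, while PLAGL1 and KLF4 were found only away from it. Meis3 is best known from hindbrain patterning in frog and fish embryos. The H3K4me3 peak at chr7:15908602-15910127 was centred 44 bp from the TSS and had neither PLAGL1 nor KLF4. The nearest KLF4 site was 13518 bp from it, and 22.6% of 12048 promoter peaks had their nearest site as far away or farther. In its group, the next to highest of the 4 by H3K4me3 score, 79.3% of marked genes had a KLF4 site in the peak.

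The PLAGL1 peaks annotated to Meis3 lay 22263 and 22563 bp from its TSS, both in the last intron, 16 of 16, of the helicase gene Dhx34. The first, chr7:15931518-15931649, had a score of 50 and rank 936, and the second, chr7:15931826-15931941, a score of 30 and rank 2151. They were 177 bp apart, a spacing that 57 of 3441 neighbouring PLAGL1 pairs matched or undercut. A single KLF4 site, chr7:15931346-15932457, covered both, with 5.86 log2 CPM in the authors' deposited table. No H3K4me3 peak overlapped this place. All 3 PLAGL1 peaks of the family thus overlapped KLF4, against 62.4% of all PLAGL1 peaks and 35.9% of those without H3K4me3, but they stand for only 2 places.

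A second KLF4 site linked to Meis3, 9245 bp from the PLAGL1 pair at chr7:15941186-15942690, had 6.83 log2 CPM in the authors' deposited table. It lay in intron 7 of Dhx34 over a PLAGL1 peak with a score of 57 and an H3K4me3 peak with a score of 59, both annotated to Dhx34. Peaks in this stretch are given to Meis3 or Dhx34 by the nearest TSS alone, which does not show which gene they act on.

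Meis1, a cofactor of HOXA9 in blood stem cells and leukaemia, carried H3K4me3 and neither factor. Its main peak at chr11:18968579-18970961 was centred 801 bp upstream of the TSS. A second with a score of 299 lay 8120 bp upstream, and another with a score of 248 was 141271 bp downstream. The KLF4 site nearest to the main peak was 371240 bp away, and 244 of 12048 promoter peaks (2.03%) had theirs as far away or farther. Meis1 was the only one of the 6 with no KLF4 site within 10 kb of any of its peaks, and the 50 kb window added none.

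Meis2, needed in the mouse for neural crest derivatives of the face and heart, had H3K4me3 at chr2:115892752-115895270 in intron 2 of 13, centred 1089 bp from a TSS. A weak second peak with a score of 70 lay 208410 bp from the TSS. The only KLF4 site nearby, chr2:115897423-115897951, was 2153 bp from the main peak and had 4.19 log2 CPM in the authors' deposited table, higher than at 15.7% of sites. It lay on a separate H3K4me3 peak with a score of 299 at the promoter of the non-coding gene G630016G05Rik. No PLAGL1 peak lay within 10 kb of either Meis2 peak. Of the 4 H3K4me3 peaks of the family beyond 3 kb of a TSS, at Meis1, Meis2 and Pbx3, 0 overlapped KLF4, against 44.3% of all such peaks.

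**Figure D3:**
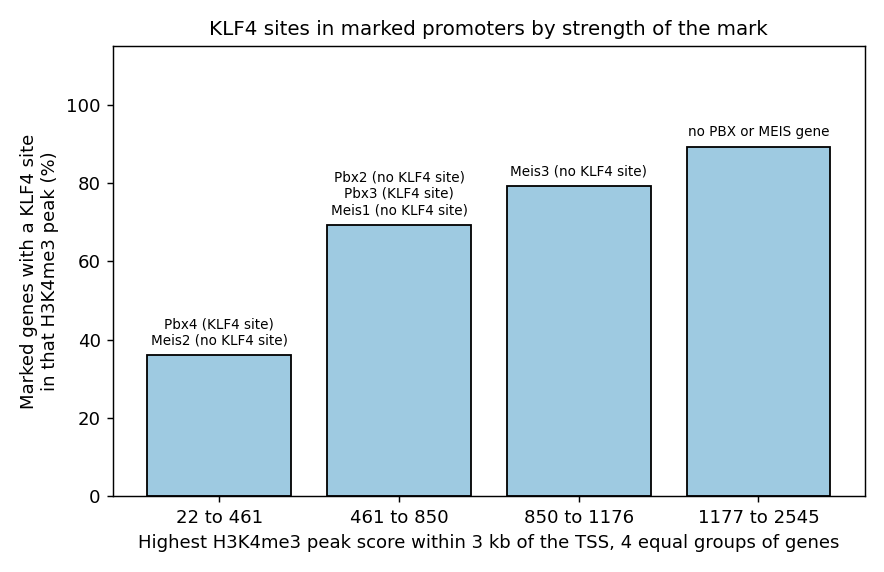
Share of marked protein-coding genes with a KLF4 site in their H3K4me3 peak (vertical, %), for 4 equal groups of genes by the highest H3K4me3 score within 3 kb of the TSS (horizontal); the PBX and MEIS genes are written above the bar of their group. The share is 36.0%, 69.3%, 79.3% and 89.3% from the lowest to the highest group, and Meis3, Meis1 and Pbx2 lack a site in groups where most genes have one.

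The sequence before the TSS was read for 3 of these genes to set a promoter with KLF4 (Pbx4) beside marked ones without it (Meis1 and Meis3). Shown are the 250 bases before the RefSeq start, 5′ to 3′ on the gene's strand, from the GRCm38.p6 table, while the peaks above are on mm39, so they were compared only through their distance to the TSS. Capitals mark matches to GGGNGTG, a core of KLF sites, on either strand. The windows are chr8:69832374-69832623 (plus strand) for Pbx4, chr11:19018970-19019219 (minus strand) for Meis1 and chr7:16175145-16175394 (plus strand) for Meis3.
Pbx4: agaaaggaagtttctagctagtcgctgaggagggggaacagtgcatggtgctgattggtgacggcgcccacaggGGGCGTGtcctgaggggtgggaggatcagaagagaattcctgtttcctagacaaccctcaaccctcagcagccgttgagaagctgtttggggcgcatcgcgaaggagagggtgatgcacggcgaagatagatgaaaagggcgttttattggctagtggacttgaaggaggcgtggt
Meis1: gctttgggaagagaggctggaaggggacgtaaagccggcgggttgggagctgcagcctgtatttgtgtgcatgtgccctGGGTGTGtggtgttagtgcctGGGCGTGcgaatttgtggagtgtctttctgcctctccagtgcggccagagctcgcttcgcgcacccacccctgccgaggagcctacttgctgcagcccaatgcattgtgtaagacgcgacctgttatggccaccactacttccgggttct
Meis3: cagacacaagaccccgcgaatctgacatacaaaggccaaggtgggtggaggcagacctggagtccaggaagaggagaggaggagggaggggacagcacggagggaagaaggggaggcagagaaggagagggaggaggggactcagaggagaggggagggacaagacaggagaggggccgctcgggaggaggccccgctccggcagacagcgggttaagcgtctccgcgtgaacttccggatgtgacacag

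Pbx4 had 1 match, starting 176 bases before the start site, Meis1 had 2, starting 171 and 150 bases before it, and Meis3 had none. Meis1 therefore held the letters without a KLF4 site in the deposited list. Windows of Pbx2 and Meis2 had no match either, which made 2 of 5 windows with one, against 26.1% of 32817 promoters. The promoter table matched 5 of the 6 genes, all but Pbx3. The letters GGGGCCCC, a site reported for PLAGL1, occurred in none of the 5 windows and in 0.884% of all promoters, and matches to the 2 motifs overlapped in 3 promoters overall. A match describes letters and not a bound site.

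The only replicated comparison set KLF4 in Plagl1-deficient cells against control cells. None of the 8 sites passed the test: 0 had an adjusted p under 0.05 in the authors' deposited edgeR table, against 0.0473% of all 21130 sites. At an unadjusted p under 0.05 the count was also 0 of 8, against 6.46% of the 21130 in the authors' deposited table. The numerator of its fold change is not stated, so a sign here does not say in which cells KLF4 was higher. Of the 8 log2 fold changes in that table of the authors, 4 were positive and 4 negative, with a median of -0.04, against 0.0013 over all sites.

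The Pbx4 promoter site was the farthest from 0. Its log2 fold change in the authors' deposited table was -0.46, with an approximate 95% interval of -0.93 to 0.0042, p = 0.052 and adjusted p = 0.77. The Pbx3 site under the PLAGL1 peak had 0.02 (-0.25 to 0.29) in the authors' deposited table, p = 0.88. This was the only promoter of the family with a PLAGL1 peak.

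The Meis3 site under the pair of PLAGL1 peaks had 0.22 (-0.05 to 0.49, p = 0.11) in the authors' deposited table, and the one in Dhx34 had 0.18 (-0.02 to 0.39, p = 0.076). The sites near Pbx2 had 0.16 (-0.11 to 0.43) and -0.09 (-0.26 to 0.08) in the authors' deposited table. The second Pbx4 site had -0.10 (-0.63 to 0.42) and the Meis2 site -0.15 (-0.71 to 0.41) in the authors' deposited table. All 8 intervals included 0. At the errors of these sites, an absolute log2 fold change of 0.38 at the strongest to 1.25 at the weakest would have been needed to reach p = 2.3e-05, the largest p called in the authors' deposited table. Smaller changes would not have been called at that threshold.

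**Figure D4:**
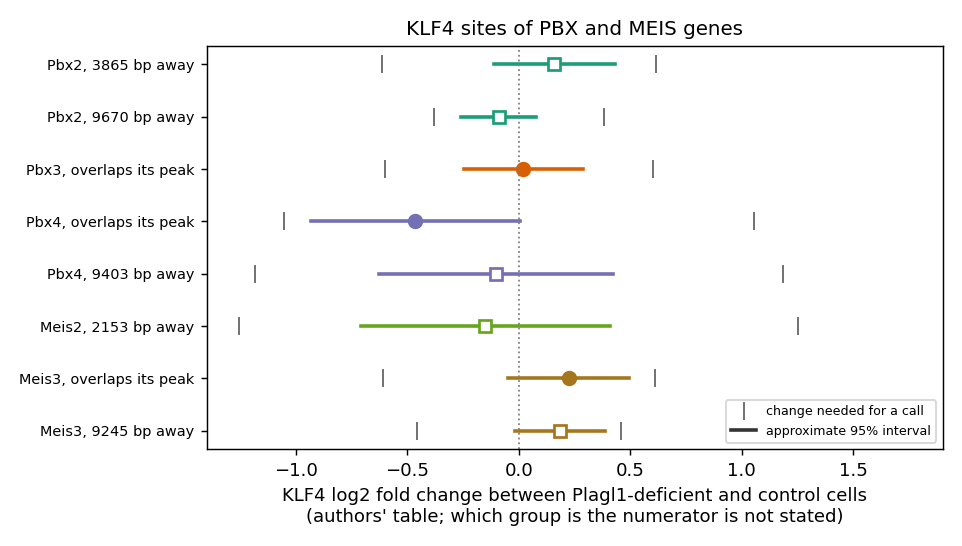
Log2 fold change of KLF4 between Plagl1-deficient and control cells (horizontal; 3 libraries each, authors' deposited table, numerator not stated) at the 8 sites, filled circles where the site overlaps a peak of the gene and open squares where it lies the given distance away. Bars are approximate 95% intervals and grey ticks the change needed for a call; all bars cross 0 and no point reaches its ticks.

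Related genes were described from lists. Of 11 other TALE genes 8 had H3K4me3 at the TSS, against the 51.3% of protein-coding genes given above, with Tgif1 (731), Irx3 (700), Mkx (645) and Pknox2 (585) the highest. Their median score of 582.5 compared with 664.5 for the PBX and MEIS genes. A KLF4 site lay in that peak at 6 of the 8, against 68.5% of marked protein-coding genes. PLAGL1 lay within 3 kb of the TSS of 2 of the 11, Pknox2 (score 50) and Irx5 (21), against 5.82% of protein-coding genes. Pknox1 and Pknox2 encode PREP proteins, which can take the place of MEIS as partners of PBX. Their KLF4 signals of 7.87 and 5.50 log2 CPM in the authors' deposited table contrast with the 3 MEIS genes, where no TSS peak had KLF4, a difference that was not tested.

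Of 25 HOX and other homeodomain partners in DNA binding 6 had H3K4me3 at the TSS, against 51.3% of protein-coding genes. They were led by En1 (351), Hoxb4 (225), Hoxa3 (106) and Hoxa5 (95), and 0 of the 6 had KLF4 in that peak, against 68.5% of marked genes. PLAGL1 lay at the TSS of 2 of the 25, Hoxa4 (30) and Hoxa5 (21), against 5.82% of protein-coding genes. The 7 interacting cofactors were all marked, against 51.3% of protein-coding genes. Crtc2 (1528), a CREB coactivator, and the deacetylases Hdac3 (1310) and Hdac1 (1104) were the highest. Of these 7, 1 had PLAGL1 within 3 kb of its TSS, Ncor1 (22), against 5.82% of protein-coding genes. KLF4 lay in the marked peak of 6 of the 7, against 68.5% of marked genes. The exception was Pbxip1, which encodes a protein that binds PBX. The 6 include Klf4 itself, with 10.0 log2 CPM in the authors' deposited table. Whether reads from the lentiviral KLF4 vector add to that signal was not tested.

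Of 10 genes reported as targets of MEIS or PBX in other tissues, 5 were marked, against 51.3% of protein-coding genes. KLF4 lay in the marked peak of 3 of the 5, against 68.5% of marked genes, namely Cdkn1a (1012), Cdkn2b (917) and Hif1a (646). Wnt3, Wnt9b and Fgf8, tied to PBX in the embryonic face, had no mark at the TSS. PLAGL1 was within 3 kb of the TSS of 2 of the 10, Cdkn2a (47) and Cdkn1a (46), against 5.82% of protein-coding genes. Both encode inhibitors of the cell cycle. In the marked peaks of these 4 lists lay 18 KLF4 sites of the authors' deposited table, of which 0 had an adjusted p under 0.05, against 0.0473% of all sites, and 3 an unadjusted one, against 6.46%. These 18 sites were not tested as a group.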

How the data were processed

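The submitters' processing notes list mm39 as the build and, among other tools, MACS3 3.0.2, HOMER 4.11.1, Bowtie2 2.5.4, edgeR 4.2.0 and DiffBind 3.16.0, without saying what each did. Duplicate handling and scaling between libraries are not given in the sources used here. Peak scores are whole numbers from 20 set by the authors, per the file headers, and their scale is not stated. The authors called PLAGL1 peaks with IgG as the control of the HA library, per their file name. The KLF4 table holds the authors' deposited log2 fold change, mean log2 CPM, F score, p-value and adjusted p-value per site, and no values per library, so no counts were refitted. The deposited files have 0 columns of further samples.

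Computed here with scipy 1.17.1, numpy 2.4.6 and pandas 2.3.3 under Python 3.11.15 (plots: matplotlib 3.10.9): overlaps of at least 1 bp, gaps between intervals, counts per gene name, and standard errors as the absolute log2 fold change over the square root of F, with degrees of freedom solved from F and p (median 87.6 used where F was under 0.5). Both were recovered from simulated F and p made by the same formulas. That checks the calculation, and not whether the formulas hold for the deposited values. A median of 87.6 is more than 3 against 3 libraries give at a single site, so the errors were largely pooled over sites. Protein-coding symbols came from the RefSeq table of GRCm38.p6, which held all 6 genes and 98.0% of H3K4me3 gene names. All 6 genes were named with every peak and site, and listed genes by score. Genes and lists were chosen with earlier results of these data known.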

Additional observations from a re-analysis of the deposited data

How the results depend on the processing

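The count of 0 called KLF4 sites held for sites that overlap a named peak (3 sites), for a 50 kb window (20 sites), for sites near a TSS peak (6 sites), and when the last 1 Mb of sites of chrX and chrY were left out of the adjustment. The number of KLF4 sites itself moved with the window, 8 within 10 kb against 3 by overlap and 20 within 50 kb. The count of genes with a PLAGL1 peak was 2 at any distance and 1 within 3 kb of the TSS. Within 50 kb, 2 of the 20 sites had an unadjusted p under 0.05 in the authors' deposited edgeR table, against 6.46% of all sites. The median log2 fold change ranged from -0.10 to 0.02. H3K4me3 at the TSS was kept by 5 of 6 genes within 1 kb and by 5 of 6 at a score of at least 100, and all 3 PLAGL1 peaks still overlapped KLF4 when 50% of the shorter interval was required. No paired analysis was possible because the deposited table has no values per library. For the same reason leaving out each replicate, other size factors and other count filters were not run. PLAGL1 and H3K4me3 rest on 1 library each.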
